A study of Mus musculus with 12 samples.

Results

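The immune checkpoint ligands are surface or secreted proteins through which a tumor cell or a myeloid cell restrains, and in some cases stimulates, the lymphocytes and phagocytes that meet it. PD-L1 and PD-L2 engage PD-1 on T cells, and CD80 and CD86 engage the inhibitory receptor CTLA-4 and the stimulatory receptor CD28. The nectin family proteins NECTIN2 and PVR engage TIGIT and CD226, and PVR also engages CD96. CD47 binds SIRPα on macrophages and inhibits their phagocytosis, and interferons are known inducers of PD-L1. Described here are the transcripts of 10 genes of this kind, namely Cd274 (PD-L1), Pdcd1lg2 (PD-L2), Cd80, Cd86, Cd276 (B7-H3), Vsir (VISTA), Cd47, Lgals9 (galectin-9), Nectin2 and Pvr, chosen by symbol among 40077 genes listed for cells and 34508 listed for tumors.

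The study compared 4 groups of 3 libraries each, 12 in all, sequenced after depletion of ribosomal RNA. Myc-CaP, a mouse prostate cancer line from a mouse carrying a human MYC transgene in the prostate, was exposed in culture to DMSO or to YJ1206, an orally bioavailable degrader (PROTAC) of the transcriptional kinases CDK12 and CDK13, at 1 μM for 24 hours. Subcutaneous Myc-CaP tumors, grown in male FVB mice with an intact immune system, came from animals given vehicle or YJ1206, which the study's methods give as 100 mg/kg by mouth 3 times per week; the age of the mice and the day of collection are not given in the sources used here. The study examined whether loss of CDK12 and CDK13 activity alters antitumor immunity and the response to PD-1 blockade. Its methods state that data came from independent biological replicates, but the labels do not tie a library to a culture or an animal, so the p-values measure the spread between these libraries.

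Total estimated counts ranged from 13937000 to 18520100 in the cell libraries and from 15391700 to 26928400 in the tumor libraries. The detection floor used here, 3 counts, equals 0.162 to 0.215 and 0.111 to 0.195 counts per 1000000 of a library's total (counting error only). The CPM given below are counts per 1000000 of a TMM-scaled library total, so they differ somewhat from that unit. Labels name polyA RNA for the cells and total RNA for the tumors, and the DMSO and YJ1206 cell libraries carry numbers from separate library series, so treatment and library series cannot be told apart. Library 3 stood apart in an unusual way in both tumor groups. Among genes with at least 5 CPM, those differing 2-fold or more between libraries 1 and 2 were examined. Library 3 lay between the others for 428 of 432 such genes in vehicle tumors and 174 of 176 in YJ1206 tumors. The tumor calls of the ligands are therefore also given with libraries 1 and 2 alone. Nothing in the labels says how library 3 was made; were it not a sample of its own, each tumor group would hold 2 samples, and the tumor p-values computed with 3 would be too small. Of the epithelial markers, the keratin gene Krt8 had counts in every library, whereas Epcam had no counts in the cells. Skeletal muscle markers summed to 675, 16.3 and 413 CPM in vehicle libraries 1, 2 and 3 against 8.41 to 9.64 CPM in YJ1206 tumors, and fibroblast markers to 2310, 760.0 and 1684 against 534 to 1287 CPM.

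In GRCm38 (GENCODE vM21), Cd274 (ENSMUSG00000016496.7, chr19:29367455-29388095, plus strand) and Pdcd1lg2 (ENSMUSG00000016498.10, chr19:29410919-29471161, plus strand) lie in tandem with 22823 bases between them. Cd80 (ENSMUSG00000075122.5, chr16:38455561-38496335), Cd86 (ENSMUSG00000022901.13, chr16:36603869-36666081) and Cd47 (ENSMUSG00000055447.19, chr16:49800533-49915010) are on chromosome 16, and Nectin2 (ENSMUSG00000062300.14, chr7:19716644-19750483) and Pvr (ENSMUSG00000040511.14, chr7:19903578-19921160) on chromosome 7. The others are Cd276 (ENSMUSG00000035914.11, chr9:58524298-58555437), Vsir (ENSMUSG00000020101.14, chr10:60346851-60372684) and Lgals9 (ENSMUSG00000001123.15, chr11:78962974-78984946). RefSeq start sites on GRCm38.p6 were listed for 8 of the 10 genes. For Cd47, Cd276, Nectin2 and Cd80 these starts lie inside the spans above, and the bases before the spans were not searched. The Lgals9 start also lies inside its span, but its window reaches into the bases before the span. The 250 bases before each start were searched on both strands for GAAANNGAA (the core of an interferon regulatory factor element), TTCNNNGAA (a STAT element), GGGACTTTC (a kappa B core) and CACGTG (an E box); no match of one motif overlapped a match of another. Cd274 and Lgals9 held 1 match each, to the interferon regulatory factor core, a motif present in 7.13% of 32851 such windows; the windows of the other listed members held no match to any of the 4 motifs, which are in 7.02%, 0.289% and 6.02% of windows for STAT, kappa B and E box. The windows below are those 2 genes, shown for the match (capitals, read on the opposite strand, bases 76 to 68 before the start in Cd274 and 54 to 46 in Lgals9), and Nectin2, shown because its fitted change had opposite signs in cells and tumors and differed between them. All run 5′ to 3′ toward the start, Cd274 from chr19:29367188-29367437 (plus strand), Lgals9 from chr11:78984925-78985174 and Nectin2 from chr7:19749574-19749823 (both minus strand).
Cd274: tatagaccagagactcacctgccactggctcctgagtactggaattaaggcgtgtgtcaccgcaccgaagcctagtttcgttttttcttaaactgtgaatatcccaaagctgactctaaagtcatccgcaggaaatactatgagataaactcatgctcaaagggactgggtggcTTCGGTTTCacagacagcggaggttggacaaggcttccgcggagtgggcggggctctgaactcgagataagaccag
Lgals9: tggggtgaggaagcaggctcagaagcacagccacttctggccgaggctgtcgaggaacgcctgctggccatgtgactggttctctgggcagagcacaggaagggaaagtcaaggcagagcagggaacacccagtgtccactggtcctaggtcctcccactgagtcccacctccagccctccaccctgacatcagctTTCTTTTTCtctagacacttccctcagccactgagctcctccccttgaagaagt
Nectin2: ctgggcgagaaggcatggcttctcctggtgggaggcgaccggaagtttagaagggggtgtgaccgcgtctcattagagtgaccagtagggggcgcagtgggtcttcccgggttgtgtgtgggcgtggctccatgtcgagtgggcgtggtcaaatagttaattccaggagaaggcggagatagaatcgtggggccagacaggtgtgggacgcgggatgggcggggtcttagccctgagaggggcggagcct

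Cd47, Lgals9, Nectin2, Pvr and Cd274 were detected in every library of cultured cells, Cd276, Vsir, Cd80 and Cd86 were seen almost entirely in the tumors, and Pdcd1lg2 was at the floor in all 4 groups. On the length-scaled TPM values (transcripts per 1000000), DMSO cells held Cd47 at 109.6 ± 7.41, Lgals9 at 60.0 ± 1.15, Nectin2 at 19.2 ± 0.50, Pvr at 11.4 ± 0.42 and Cd274 at 0.44 ± 0.11 TPM (mean ± SD, n = 3), and the ranges of neighbors in this order did not overlap. Below them, Cd80, Cd276, Pdcd1lg2 and Vsir were at 0.056 TPM or less with overlapping ranges, and Cd86 had no count in any of the 6 cell libraries. In YJ1206-treated cells Cd47 (74.7 ± 2.32 TPM) and Lgals9 (73.4 ± 1.99 TPM) had overlapping ranges, and Pvr (12.02 ± 0.70 TPM) stood above Nectin2 (9.64 ± 0.65 TPM). Vehicle tumors kept the order Cd47, Lgals9, Nectin2, Pvr (117, 44.3, 26.2 and 17.6 TPM), followed by Vsir (5.69 ± 1.45), Cd276 (4.96 ± 2.19) and Cd274 (2.56 ± 0.57), of which neighbors overlapped. Cd86 (1.15 ± 0.29 TPM) and Cd80 (0.79 ± 0.21 TPM), which mark antigen-presenting cells, overlapped each other as well. In YJ1206 tumors Cd47 and Lgals9 again overlapped (75.0 ± 1.25 and 74.4 ± 3.12 TPM), as did Cd276 and Cd274 (3.78 ± 0.74 and 3.64 ± 0.62 TPM). The TPM of cells and of tumors were scaled in separate tables, so levels across them stand side by side without a test.

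**Figure D1:**
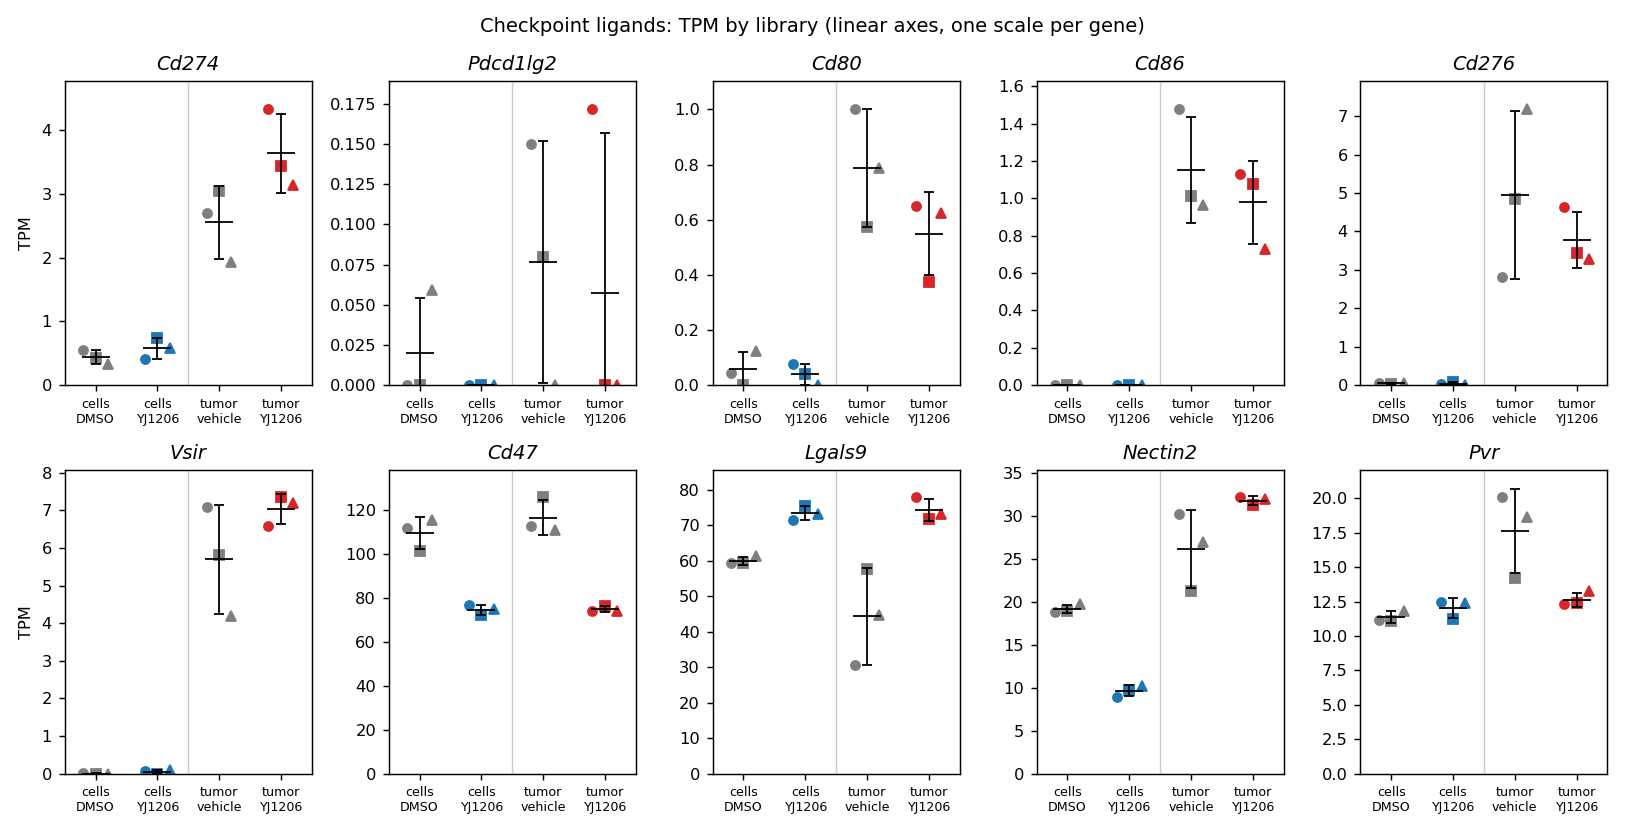
TPM of the 10 ligands (vertical axis, linear, with its own scale for each gene) in the 3 libraries of each of the 4 groups; circles, squares and triangles are libraries 1, 2 and 3, and black bars are the mean ± SD. Cd276, Vsir, Cd80 and Cd86 lie near or at 0 in both cell groups, and Cd47 falls from 109.6 to 74.7 TPM in cells and from 117 to 75.0 TPM in tumors.

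In cultured cells, YJ1206 was accompanied by more Lgals9 and Pvr and less Cd47 and Nectin2 transcript, and the change in Cd274 did not pass the test. Of the 10 ligands, 5 had enough counts to be tested, and 4 of these had an adjusted p under 0.05 (edgeR quasi-likelihood test, Benjamini-Hochberg over 11826 genes), 2 higher and 2 lower. The treatment moved most of the transcriptome, with 76.1% of all genes tested past the same threshold, 37.8% higher and 38.3% lower, so a count of 4 in 5 is near the background. The median log2 fold change was -0.02 over all genes with TMM scaling and -0.20 with total counts alone; the direction of each of the 4 calls was the same under both. With total counts alone the log2 fold changes were -0.53 for Cd47, 0.42 for Lgals9, -0.93 for Nectin2 and 0.20 for Pvr, to be read against that median of -0.20.

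Cd274 encodes PD-L1, the ligand of PD-1. DMSO libraries 1 to 3 gave it 22, 17 and 13 counts (1.13, 0.878 and 0.655 CPM) and YJ1206 libraries 1 to 3 gave it 15, 25 and 20 (1.07, 1.89 and 1.54 CPM). YJ1206 library 1 lay below DMSO library 1, so the groups overlapped, while the other YJ1206 libraries lay above all DMSO libraries. The fitted log2 fold change was 0.75 (standard error, SE, 0.35, 95% interval 0.034 to 1.46), with an adjusted p of 0.0534 (edgeR). The change passed the threshold when DMSO library 1 was left out (0.96, adjusted p = 0.0396, edgeR) or YJ1206 library 1 was (0.95, adjusted p = 0.0294, edgeR), and on the log2(TPM + 1) scale it was 0.13. At 13 to 25 counts per library, the interval spans from almost no change to more than a doubling.

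Cd47, the signal read by SIRPα, was the most abundant of the 10 in DMSO cells on the TPM scale. It measured 144, 132 and 148 CPM with DMSO and 115, 107 and 112 CPM with YJ1206. All YJ1206 libraries lay below all DMSO libraries, a log2 fold change of -0.34 (SE 0.043; edgeR adjusted p = 6.50e-08). Lgals9 encodes galectin-9, a secreted lectin that binds TIM-3 among other partners. It measured 46.2, 46.2 and 47.3 CPM with DMSO and 68.5, 72.5 and 71.4 CPM with YJ1206. The groups were far apart relative to the spread within each, and the log2 fold change was 0.60 (SE 0.048; edgeR adjusted p = 7.41e-12). On the log2(TPM + 1) scale it was 0.29 (adjusted p = 0.00026, limma).

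The nectin family ligands of TIGIT and CD226 moved apart. Nectin2 measured 23.6, 23.4 and 24.5 CPM with DMSO and 13.1, 14.8 and 14.996 CPM with YJ1206. Every YJ1206 library was lower, and the log2 fold change was -0.74 (SE 0.084; edgeR adjusted p = 8.88e-09). Pvr measured 18.2, 18.1 and 19.1 CPM with DMSO and 24.9, 22.5 and 25.1 CPM with YJ1206. Here every YJ1206 library was higher, with a log2 fold change of 0.39 (SE 0.079; edgeR adjusted p = 7.98e-05). The rise in Pvr depended on the unit, since on the log2(TPM + 1) scale it was 0.073 (adjusted p = 0.383, limma), where the median of all genes was -0.26; with total counts alone its adjusted p was 0.0233 (edgeR).

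The ligands best known from antigen-presenting cells and stroma were at the limit of detection in the cells. Pdcd1lg2 had 1 count in 1 of 6 libraries, Cd276 and Vsir had at most 2 and 3 counts per library, and Cd80 had at most 4. Cd86 had 0 counts in all 6, where 0 counts in a single library taken alone allow up to 3. None of these 5 could be tested. The defining leukocyte gene Ptprc (CD45) likewise had no counts in the cells, and the 5 leukocyte markers summed to at most 0.215 CPM.

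In the tumors, Lgals9 and Vsir were higher and Cd47 and Pvr lower with YJ1206, while Cd274 and Nectin2 were higher in every treated library without passing the adjusted threshold. Of 9 ligands tested, 4 had an adjusted p under 0.05, 2 higher and 2 lower (edgeR, 15558 genes), beside 26.8% of all genes tested, 11.9% higher and 14.9% lower. The median log2 fold change of the 9 was 0.04, against 0.01 over all genes. These calls depended on few libraries: with libraries 1 and 2 alone, 0 of the ligands and 1 of all genes passed (3068 genes had an unadjusted p under 0.05), and with 1 library left out in turn 1 to 5 ligands did, the fewest without vehicle library 3, YJ1206 library 2 or YJ1206 library 3 and the most without vehicle library 2. In bulk tissue, fewer cells of a type and less RNA per cell cannot be told apart.

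**Figure D2:**
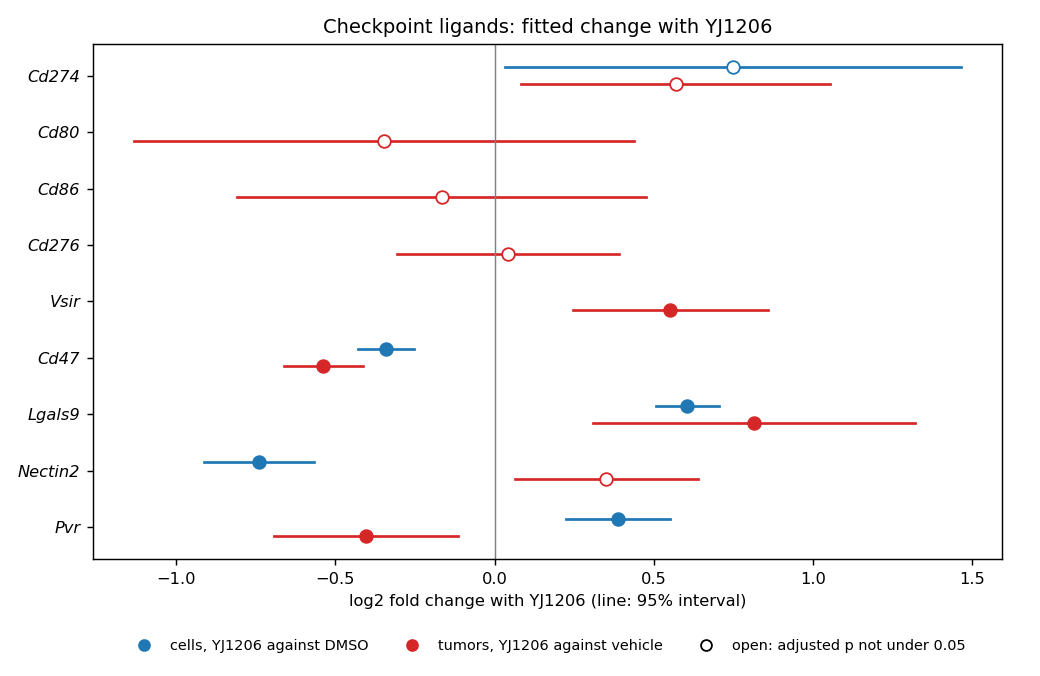
Fitted log2 fold change with YJ1206 (horizontal axis) and its 95% interval for each ligand that could be tested, in cells (blue) and tumors (red); open circles did not pass the adjusted threshold. Cd47 lies left of 0 and Lgals9 right of 0 in both experiments, whereas Nectin2 runs from -0.74 in cells to 0.35 in tumors and Pvr from 0.39 to -0.40.

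The PD-1 ligands differed in abundance. Cd274 measured 5.77, 6.79 and 4.14 CPM in vehicle tumors and 9.83, 7.97 and 7.22 CPM in YJ1206 tumors. All treated libraries were above all vehicle libraries, and the fitted log2 fold change was 0.57 (standard error 0.21, 95% interval 0.083 to 1.05) with an adjusted p of 0.0825 (edgeR), a difference that passed only when vehicle library 2 was left out (0.73, adjusted p = 0.0254, edgeR). Pdcd1lg2, by contrast, had 3, 2 and 0 counts in vehicle and 3, 0 and 0 in YJ1206 tumors, at the floor in all 6 libraries and not tested. Of the CTLA-4 and CD28 ligands, Cd80 measured 1.53, 0.825 and 1.49 CPM with vehicle and 1.20, 0.761 and 1.03 CPM with YJ1206. Cd86 measured 2.16, 1.54 and 1.42 CPM with vehicle and 1.75, 1.70 and 1.13 CPM with YJ1206. The groups overlapped for both, and the intervals of the log2 fold change ran from -1.13 to 0.44 for Cd80 and from -0.81 to 0.48 for Cd86, so neither a fall nor a rise within those bounds is excluded.

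Cd276, the B7 family member B7-H3, measured 5.32, 6.56 and 6.72 CPM with vehicle and 5.79, 7.03 and 6.29 CPM with YJ1206. These values overlapped throughout, with a log2 fold change of 0.04 (95% interval -0.31 to 0.39). On the TPM scale its direction turned, to -0.26 (log2(TPM + 1), adjusted p = 0.552, limma), and its vehicle libraries spread over 2.82, 4.85 and 7.19 TPM, far wider than in CPM. Vsir encodes VISTA, a B7 family protein of myeloid cells. It measured 10.3, 9.26 and 8.92 CPM with vehicle and 12.2, 15.9 and 13.6 CPM with YJ1206. Every treated library was higher, a log2 fold change of 0.55 (SE 0.13; edgeR adjusted p = 0.0200), but on the log2(TPM + 1) scale it was 0.29 (adjusted p = 0.283, limma) and the TPM of the groups overlapped. Left out in turn, vehicle library 3 and YJ1206 libraries 2 and 3 each ended the call (adjusted p 0.0642 to 0.0864, edgeR), as did libraries 1 and 2 alone (adjusted p = 0.251, edgeR).

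The summed leukocyte markers were also higher with YJ1206, mostly through Cd52. The 5 markers summed to 77.1, 109 and 87.8 CPM with vehicle and 124, 151 and 139 CPM with YJ1206, without overlap, although 0 of the 5 passed the test alone (Cd53 had the lowest adjusted p, 0.0506, edgeR). Cd52 measured 35.4 ± 22.3 and 72.5 ± 2.34 CPM, whereas Ptprc measured 13.5 ± 0.33 and 15.97 ± 4.30 CPM and Laptm5 23.7 ± 5.25 and 25.3 ± 4.92 CPM (mean ± SD, n = 3). The 9 macrophage markers summed to 401, 231 and 327 CPM with vehicle and 267, 337 and 311 CPM with YJ1206 and overlapped. Of these 9, 2 were higher (Itgam and Fcgr1) and 0 lower, beside 11.9% and 14.9% of all genes tested in tumors. The leukocyte and macrophage markers were not run with libraries 1 and 2 alone. Cd14 and Cd68 measured 9.19 and 1.02 CPM in DMSO cells, which had no Ptprc counts, so the macrophage sum does not stand for macrophages alone. The part of leukocyte content in the change of Vsir was not tested.

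Cd47 had the lowest adjusted p of the 9 tested in the tumors. It measured 187, 191 and 178 CPM with vehicle and 124, 128 and 130.02 CPM with YJ1206. The groups were well apart, a log2 fold change of -0.54 (SE 0.053; edgeR adjusted p = 0.0013) that passed in 13 of 14 alternatives, the exception being libraries 1 and 2 alone (-0.58, adjusted p = 0.134, edgeR). Lgals9 measured 25.1, 49.7 and 37.1 CPM with vehicle and 68.0, 64.5 and 64.8 CPM with YJ1206. The treated libraries were close together and above every vehicle library, but the vehicle libraries spread over a factor of almost 2. Its log2 fold change was 0.81 (SE 0.22, edgeR adjusted p = 0.0296). Leaving out vehicle library 3 or any YJ1206 library ended the call (adjusted p 0.0789 to 0.0992, edgeR). With libraries 1 and 2 alone the change was 0.82 and did not pass (adjusted p = 0.256, edgeR).

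Nectin2 measured 40.2, 28.5 and 35.7 CPM with vehicle and 43.3, 44.9 and 44.9 CPM with YJ1206. The groups did not overlap, with a log2 fold change of 0.35 (95% interval 0.063 to 0.64, adjusted p = 0.0732, edgeR), which passed only without vehicle library 1 (0.47, adjusted p = 0.0247, edgeR). Pvr measured 33.9, 25.1 and 31.8 CPM with vehicle and 22.0, 22.7 and 23.9 CPM with YJ1206. Its log2 fold change was -0.40 (SE 0.12, edgeR adjusted p = 0.0484), just inside the threshold. It passed in 3 of 14 alternatives, among libraries left out only without vehicle library 2 (-0.52, edgeR). Without vehicle library 1 it was -0.31 (adjusted p = 0.112, edgeR), and with libraries 1 and 2 alone -0.40 (adjusted p = 0.321, edgeR). The vehicle libraries with high Pvr and Nectin2 and low Lgals9 were libraries 1 and 3, the same libraries that held 675 and 413 CPM of skeletal muscle markers and 2310 and 1684 CPM of fibroblast markers, whereas vehicle library 2 held 16.3 and 760.0 CPM of them. The part of muscle and fibroblasts in these changes was not tested.

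**Figure D3:**
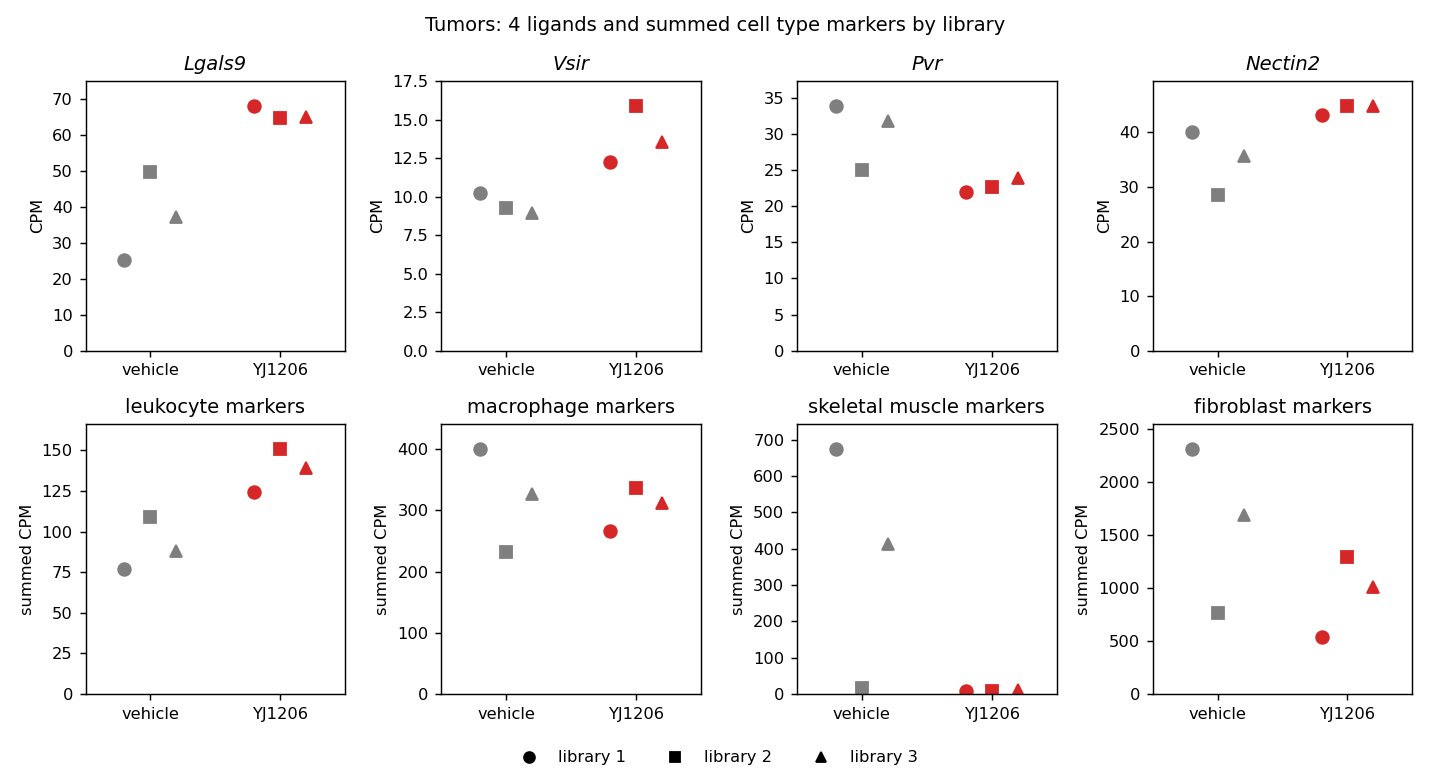
Upper row, CPM of Lgals9, Vsir, Pvr and Nectin2 in each tumor library; lower row, summed CPM of leukocyte, macrophage, skeletal muscle and fibroblast markers in the same libraries (linear axes from 0; circles, squares and triangles are libraries 1, 2 and 3). Vehicle libraries 1 and 3 hold 675 and 413 CPM of muscle markers, and leukocyte markers run from 77.1 to 109 CPM with vehicle and from 124 to 151 CPM with YJ1206.

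**Figure D4:**
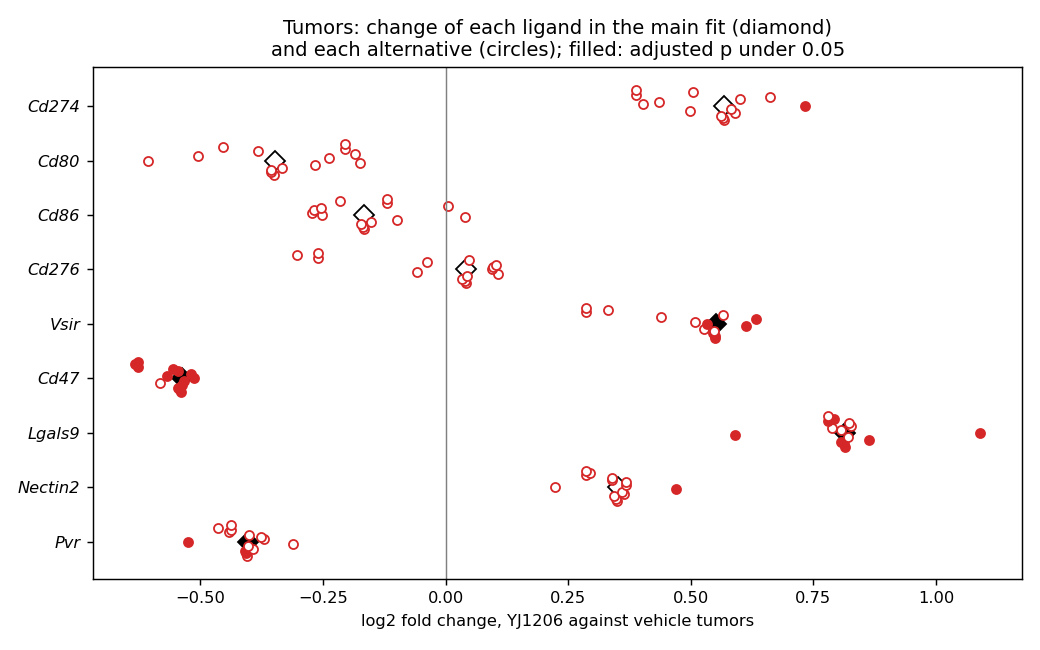
Log2 fold change of the 9 tested ligands between YJ1206 and vehicle tumors (horizontal axis) in the main test (diamond) and in 14 alternatives (circles), filled where the adjusted p was under 0.05. Cd47 stays left of 0 and is filled in 13 of 14 alternatives, Lgals9 is filled in 8, Vsir in 6 and Pvr in 3, and Cd276 and Cd86 fall on both sides of 0.

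Whether the effect of YJ1206 differed between tumors and cultured cells was tested for the 5 ligands measurable in both, as the interaction term over all 12 libraries. It passed for 3 of the 5, beside 46.8% of 15328 genes tested. The test compares 2 experiments that also differ in dose route, duration and cell makeup. It uses a common spread estimate for both materials. Pairs of cell libraries differed less (chi-square per gene 1.91 to 2.82) than pairs of tumor libraries (3.54 to 46.7), so its p-values can be too small for the tumor spread. Nectin2, lower in cells and not called in tumors, had an effect in tumors above that in cells by 1.06 on the log2 scale (SE 0.16; edgeR adjusted p = 0.0001). For Pvr the difference was -0.82 (SE 0.15; edgeR adjusted p = 0.00059). Both passed in all 17 alternatives run, which do not include TPM, scaled separately in cells and tumors. Cd47 differed by -0.23, the larger fall being in tumors (SE 0.075; edgeR adjusted p = 0.0234); this came to -0.009 with total counts alone, and it did not pass without DMSO library 2 or YJ1206 cell library 1 (adjusted p 0.0569 and 0.0546, edgeR). For Lgals9 the difference was 0.18 (95% interval -0.31 to 0.67) and for Cd274 it was -0.21 (95% interval -1.04 to 0.62), and neither passed, except Lgals9 without vehicle library 2 (0.45, adjusted p = 0.0149, edgeR).

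Most receptors of these ligands are lymphocyte or myeloid genes, and few were detected in the cells. Of 12 receptor genes, 3 could be tested in cells, 1 higher and 2 lower, and 8 in tumors, 1 higher and 2 lower, where 76.1% and 26.8% of all genes tested passed. With libraries 1 and 2 alone, 0 genes of this and of the next 2 lists passed in tumors, and all those called there kept their direction; values in that setting follow each gene. The lower ones were the same in both, Tigit, the inhibitory receptor for NECTIN2 and PVR (16.7 to 5.97 CPM in cells, log2 fold change -1.48, adjusted p = 4.15e-12; 7.91 to 3.99 CPM in tumors, -0.98, adjusted p = 0.0481, edgeR, and -1.13 with libraries 1 and 2 alone), and Igsf11, an adhesion protein that binds VISTA (14.7 to 6.46 CPM in cells, -1.18, and 5.41 to 2.98 CPM in tumors, -0.87 and -0.93). Rgmb, a bone morphogenetic protein co-receptor that binds PD-L2, was higher in both, by 0.32 in cells, where the call was lost with total counts alone, and by 0.40 in tumors (0.35); all 3 tumor calls were lost on the log2(TPM + 1) scale (adjusted p 0.0537 to 0.0546, limma). Tigit was read at 16.7 CPM in DMSO cells, which had no Ptprc counts, so its tumor values do not stand for lymphocytes alone. Pdcd1, which encodes PD-1, had no counts in cells and 6 counts in 1 of 6 tumor libraries. Sirpa, the receptor for CD47, had no counts in cells and measured 25.8 and 29.5 CPM in vehicle and YJ1206 tumors (edgeR log2 fold change 0.19, adjusted p = 0.352).

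Other ligands of lymphocyte and myeloid receptors changed in mixed directions. Of 18, 7 were tested in cells, with 3 higher and 1 lower, and 14 in tumors, with 2 higher and 3 lower, beside the same 76.1% and 26.8% of all genes. The balance in cells depended on the scaling, with 1 higher and 1 lower with total counts alone and 0 higher and 3 lower on the log2(TPM + 1) scale. The median log2 fold changes were 0.19 and 0.09. Nectin1, a relative of Nectin2 in cell adhesion, was lower in cells (log2 fold change -0.61, adjusted p = 5.53e-08 by edgeR). It was lower in tumors too (50.5 to 38.2 CPM, -0.40, adjusted p = 0.0041, edgeR, and -0.41 with libraries 1 and 2 alone). Lgals1, another galectin gene, was higher in cells (0.37) and lower in tumors (-1.08, adjusted p = 0.0011, edgeR; -1.12 with libraries 1 and 2 alone), and the rise in cells was not seen on the log2(TPM + 1) scale (0.035). Lgals3 was higher in cells with TMM (0.24) and lower (-0.24) on the log2(TPM + 1) scale. In tumors, Ceacam1, an adhesion molecule that also binds TIM-3, measured 83.4 and 278 CPM (edgeR log2 fold change 1.73, adjusted p = 0.0075; 1.72 with libraries 1 and 2 alone), and Nectin4 2.24 and 4.87 CPM (1.14, adjusted p = 0.0058, edgeR; 1.33).

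Genes that act on PD-L1 transcription or protein stability moved in both directions in both experiments. Of 25 such genes, 24 were tested in cells, with 13 higher and 5 lower (10 higher and 9 lower with total counts alone, 8 and 9 on the log2(TPM + 1) scale), and all 25 in tumors, with 9 higher and 4 lower (4 and 4 on the log2(TPM + 1) scale). The share called in cells is near the 76.1% of all genes, and 26.8% of all genes were called in tumors; the medians were 0.25 and 0.18. The largest in cells were Tyk2, a kinase of the type I interferon receptor (19.4 to 6.22 CPM, log2 fold change -1.64), Myc, which in this line can include reads of the human transgene (688 to 1941 CPM, 1.495), and Ptpn2, a phosphatase that restrains JAK and STAT signaling (36.4 to 97.2 CPM, 1.42). In tumors, Myc and Ptpn2 were instead lower (1338 to 889 CPM, -0.59, adjusted p = 0.0017, and 35.6 to 30.6 CPM, -0.22, adjusted p = 0.0452, edgeR). With libraries 1 and 2 alone their changes were -0.61 and -0.25. The largest in tumors were Stat2, a transducer of type I interferon (34.6 to 84.4 CPM, 1.28, adjusted p = 0.00063, edgeR; 1.26 with libraries 1 and 2 alone), Socs3, an inhibitor of STAT3 signaling (44.1 to 20.3 CPM, -1.12, adjusted p = 0.0048, edgeR; -1.10), and Ifnar2, a chain of the type I interferon receptor (22.3 to 35.4 CPM, 0.67, adjusted p = 0.0042, edgeR; 0.74).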

How the data were processed

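RNA from 12 libraries was sequenced after ribosomal RNA depletion. The submitters' processing notes name kallisto, GRCm38 and mm10; no version is given in the sources used here. Estimated counts per gene, unscaled between libraries, and TPM, corrected for transcript length, were deposited by the authors in one table each for cells and for tumors. Groups came from the sample labels, doses from the study's methods. Planned for counts, the test was run on the estimated counts rounded to whole numbers, with filterByExpr, TMM and the quasi-likelihood test of edgeR 4.0.16 in R 4.3.3, within each experiment and, for the interaction, over all 12 libraries on genes in both tables; p-values were adjusted over all genes tested, at a threshold of 0.05. CPM were computed with TMM factors on library totals over the filtered genes, except the detection floor, which used total counts. Alternatives were total counts alone, DESeq2 1.42.0, no filter, a replicate block, libraries 1 and 2 alone, each library left out, and limma 3.58.1 on log2(TPM + 1) or log2(TPM + 0.1), with genes of at least 0.5 TPM in 3 libraries or without that filter. The receptor, ligand and PD-L1 lists and T cell markers were also run with total counts alone, TPM, and libraries 1 and 2 alone. This choice was made after seeing the data. The scripts were tested on simulated data. All 10 ligands are named. Of each other list, up to 3 genes per experiment with at least 1 CPM, an adjusted p under 0.05 and the largest change are named. Pdcd1, Sirpa, the tumor values of Nectin1, Myc and Ptpn2, and markers were added after their values were seen. The ligands and lists were chosen with earlier results of these data known. No 2 libraries of the same group were identical, and all pairs of a group differed by more than sampling noise (chi-square per gene 1.91 to 46.7). Pairs from different groups were not compared. This check does not show whether library 3 of a tumor group was a sample of its own.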

Additional observations from a re-analysis of the deposited data

Results flagged for a closer look

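The effect of YJ1206 differed between tumors and cultured cells for 3 of 5 ligands, by the interaction test over 12 libraries (edgeR), beside 46.8% of all genes. The tumor effect minus the cell effect, on the log2 scale, was 1.06 for Nectin2 (adjusted p = 0.0001), -0.82 for Pvr (adjusted p = 0.00059) and -0.23 for Cd47 (adjusted p = 0.0234), the last coming to -0.009 with total counts alone (adjusted p = 0.973). In CPM, Nectin2 was lower in 3 of 3 treated cell libraries and higher in 3 of 3 treated tumor libraries than in every control library, though its tumor change did not pass (adjusted p = 0.0732). Pvr showed the opposite signs in CPM, while in TPM its cell groups overlapped (log2(TPM + 1) 0.073, adjusted p = 0.383, limma), and the interaction was not run on TPM. Cd47 was lower in 3 of 3 treated libraries of both experiments. Time, dose route, RNA label and cell makeup differ between the experiments along with the material and cannot be told apart.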

How the results depend on the processing

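Among the ligands in cells, the calls of Cd47, Lgals9 and Nectin2 passed in all 14 alternatives and that of Pvr in 11. Ligands called in tumors, 4 in the main test, numbered 2 with the replicate block, which ended the calls of Vsir and Pvr (adjusted p 0.0521 and 0.0727, edgeR), 0 with libraries 1 and 2 alone, 2 on the log2(TPM + 1) scale, 2 with log2(TPM + 0.1) and 1 with log2(TPM + 1) and no filter, and 1 to 5 with each library left out. Genes called in tumors, 4176 in the main test, numbered 1 with libraries 1 and 2 alone (3068 at an unadjusted p under 0.05) and 1877 to 5724 with each library left out, the lowest without YJ1206 library 3 and the highest without vehicle library 2. Genes whose effect differed between materials, 7176, numbered 4445 with libraries 1 and 2 alone. The replicate numbers did not pair the samples, and the replicate block gave 3477 genes in tumors.

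Among the ligands, directions turned for changes that had not passed: Cd276 in tumors without vehicle library 1 or YJ1206 library 2 (range over libraries left out -0.059 to 0.103) and with TPM (-0.26, -0.30 and, without the filter, -0.26), Cd86 in tumors without vehicle library 1 or YJ1206 library 3 (range -0.273 to 0.0394), the Cd274 difference between materials with total counts alone (0.0073), and that of Lgals9 without vehicle library 1 (range -0.048 to 0.45). That of Lgals9 passed without vehicle library 2 (adjusted p = 0.0149, edgeR), and that of Cd47 was lost with total counts, libraries 1 and 2 alone, and without DMSO library 2 or YJ1206 cell library 1. Of list genes called in cells, Cd24a (-0.12), Lgals3 (-0.24), Cmtm4 (-0.05) and Nfkb1 (-0.22) turned on the log2(TPM + 1) scale and Nfkb1 (-0.08) with total counts alone. The cause was not tested. Of the genes called in cells, 49.7% were higher with TMM, 36.1% with total counts and 29.2% with log2(TPM + 1); in tumors these shares were 44.4%, 44.7% and 34.2%, and for the difference 44.6% with TMM and 61.4% with total counts. Counting error limits the ligands at 4 or fewer counts.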

Other observations

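The genes whose log2(CPM + 1) followed each ligand most closely over the 12 libraries, among 13020 candidates, mainly repeat the contrast between cells and tumors, and are given as a description. The ligands low in cells had the closest partners: Vsir lay closest to Cyba, C1qa (a complement gene of macrophages) and Hcls1, each with a Pearson r of 0.998, and Cd276 to Ndrg1, Gimap4 and Plk2 (0.999, 0.999 and 0.998). The ligands present in both materials had looser partners. Nectin2 lay closest to Sbno2 (0.985), Cd274 to Rpl3 (0.982), Lgals9 to Rps6 (0.987), Cd47 to Olfr1372-ps1 (0.964) and Pvr to Dnajb1 (0.971).

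T cell markers had low counts in the tumors. Of 8 T cell markers listed in the tables, 5 were tested. Cd8a was higher with YJ1206 (3.996 and 6.74 CPM, edgeR log2 fold change 0.74, adjusted p = 0.0210), while the other 4 did not pass. With libraries 1 and 2 alone the change of Cd8a was 0.70 (adjusted p = 0.255, edgeR). A count of 1 in 5 is near the 26.8% of all genes called in tumors (11.9% higher). The summed markers overlapped, at 11.3 to 15.3 CPM with vehicle and 14.0 to 16.7 CPM with YJ1206. Of that sum, Cd3d made up 5.88 and 5.24 CPM on average, and it measured 4.10 CPM in DMSO cells, which had no Ptprc counts, so the sum does not stand for T cells alone. NK cell markers summed to at most 0.619 CPM and B cell markers to at most 1.39 CPM in any tumor library. Dendritic cell markers overlapped between groups (7.24 to 10.6 and 8.96 to 10.7 CPM, 0 of 3 tested called), as did the values of Cd80 and Cd86. Summed neutrophil markers were lower with YJ1206 without overlap (17.2 to 19.5 and 14.1 to 15.8 CPM, 1 of 4 tested lower). Most of that sum was Cxcr2 (11.1 and 9.69 CPM on average, adjusted p = 0.250, edgeR). Summed endothelial markers were higher (95.9 to 103 and 110.2 to 121.5 CPM, 1 of 5 higher). Of all genes tested in tumors, 14.9% were lower and 11.9% higher, so 1 call in lists this short is near the background. Neither list was run with libraries 1 and 2 alone.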
